A study of Rattus norvegicus with 9 samples.

Results

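Intranasal insulin was compared with saline in the hippocampus of rats with vascular dementia, as INS + VD vs. VD. The comparison rests on 6 RNA-seq libraries, 3 of INS + VD and 3 of VD, out of 9 in the series. It covers 14612 of the 21138 genes listed, namely those that reached 0.5 FPKM in 3 or more of these 6 libraries. FPKM counts the fragments of a gene relative to transcript length and to all fragments mapped, so levels of different genes can be set side by side. All animals were wild-type male Sprague-Dawley rats, 6 months old at purchase. In the INS + VD and VD rats both common carotid arteries had been ligated, an operation that lowers blood flow to the forebrain. The INS + VD rats were given insulin as a nasal spray at 1 U/kg a day for 8 weeks, and the VD rats saline by the same schedule. The 3 libraries of CK rats, which had neither ligation nor insulin and received saline, are given as background. Tissue was labelled day 56 in every group. No library combined insulin with intact arteries, and sham-operated rats are not analysed here. Which rats went into which library is not stated, so p-values reflect only how far these samples lay apart.

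Insulin reaches the brain from the blood and, after nasal delivery, along the olfactory and trigeminal routes. It binds the insulin receptor (Insr) on neurons, glia and vessels, and the signal runs through the adaptors Irs1 and Irs2 to the PI3K and Akt kinases and on to Gsk3b, a kinase that phosphorylates tau. The hippocampus is rich in insulin receptors, and insulin there is known to act on synaptic transmission and on the surface number of glutamate and GABA receptors. Reduced forebrain blood flow is known to bring astrocyte and microglial reactions, with complement, interferon-induced and antigen presentation genes among those switched on in glia.

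Several libraries stood apart from their group before any comparison. Summed FPKM lay between 453716 and 635759 per library, and VD replicate 1 had the highest total, the fewest genes above 0 (14428, against 17441 to 18088 elsewhere) and 1391 of the tested genes at 0, against 46 to 244 in the rest. Relative depth, read from the FPKM that a single fragment adds in genes with very low values, lay between 92% and 101% of that of CK replicate 1, with 92% in VD replicate 1, where only 26 of 107 genes gave this value. Mitochondrial genes held 15.6%, 16.7% and 16.2% of the FPKM in INS + VD replicates 1 to 3, against 7.21%, 30.1% and 13.9% in VD replicates 1 to 3. The first principal component of the 6 libraries (58% of the variance) set VD replicate 1 against the rest, and VD replicate 2 and INS + VD replicate 2 were the libraries with negative values on the second (21.1%). The Spearman correlation of INS + VD replicate 2 across genes was 0.945 with VD replicate 2, against 0.923 and 0.914 with the other libraries of its own group.

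Marker genes of cell types and regions differed widely between libraries that carry the same tissue label. Slc17a7, the vesicular glutamate transporter of cortical and hippocampal excitatory neurons, was at 504, 0.766 and 627 FPKM in INS + VD replicates 1 to 3, against 286, 30.4 and 228 FPKM in VD replicates 1 to 3. This gene, chosen after its values were seen, was thus near 0 in INS + VD replicate 2 and low in VD replicate 2, and results are therefore also given without both replicates 2. Summed markers of other regions were high in 1 or more libraries as well. Summed over 30 brainstem and spinal cord markers, FPKM came to at most 24.8 in INS + VD libraries, against 3.77, 254 and 3.31 in VD replicates 1 to 3. Summed over 23 olfactory bulb markers it came to 108, 562 and 167 in INS + VD, against 882, 185 and 1551 in VD and 134, 105 and 789 in CK. Summed over 25 choroid plexus and ependymal markers it came to 2125, 195 and 62.0 in INS + VD, against 152, 277 and 174 in VD, and Ttr, the transthyretin gene of the choroid plexus, made up 1635 FPKM of the highest sum. Summed over 21 cerebellum markers it came to 5758 FPKM in CK replicate 3, against 172 to 270 in the other 8 libraries. The part of tissue composition in the results below was not tested, and in bulk tissue fewer cells of a type and less RNA per cell cannot be told apart.

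**Figure D1:**
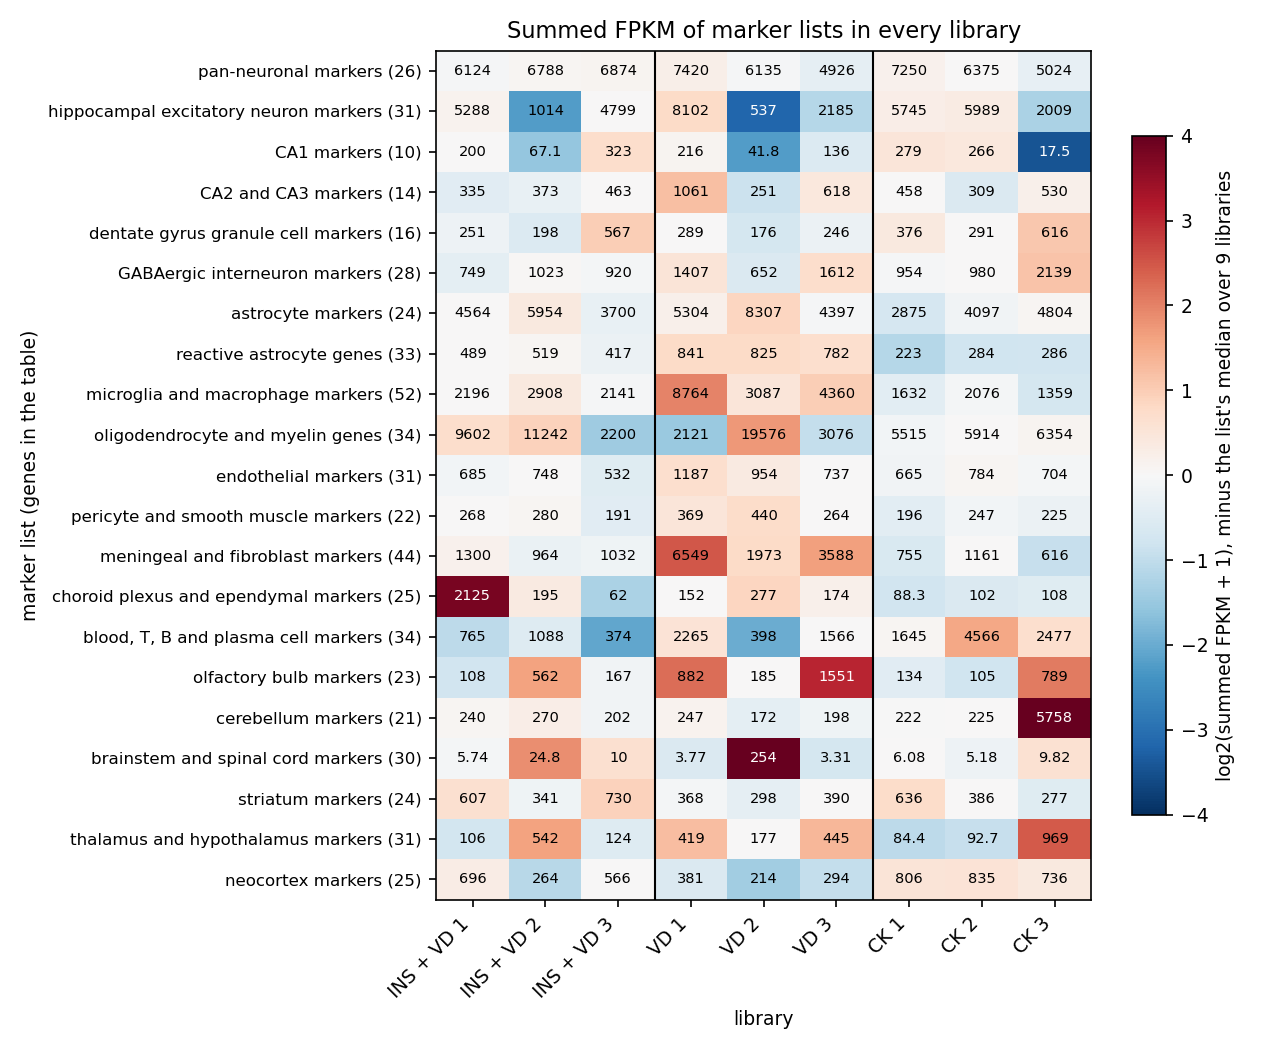
Summed FPKM of 21 lists of cell type and region markers (rows, number of genes in the table in brackets) in the 9 libraries (columns, INS + VD, VD and CK replicates 1 to 3). Numbers are summed FPKM, and colours show log2(summed FPKM + 1) minus the list's median over the 9 libraries. INS + VD replicate 2 and VD replicate 2 had the lowest sums of excitatory neuron markers (1014 and 537), VD replicates 1 and 3 high sums of meningeal and olfactory bulb markers, and VD replicate 2 the only high sum of brainstem markers (254).

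Across the genes no difference between INS + VD and VD passed the adjusted test. With limma on log2(FPKM + 1), 0 of 14612 genes (0%) passed, for which an adjusted p up to 0.05 and a log2 fold change of 1 or more in either direction were asked, and the smallest adjusted p was 0.657, so the adjusted p of every gene named below was at least 0.657. Without adjustment 932 genes (6.38%) had a p of at most 0.05, and 287 (without INS + VD replicate 3), 401 (without INS + VD replicate 1), 1475 (without VD replicate 2) and 1949 (without VD replicate 3) when 1 library was left out. With the fold change minimum 699 genes (4.78%) remained under the unadjusted p, 432 higher in INS + VD (2.96%) and 267 lower (1.83%). These unadjusted counts are used below to describe groups of genes, and such genes are called higher or lower for short. The split depended on scaling. When all libraries were scaled to the same FPKM total 656 genes were higher and 134 lower, and with log2 values centred on each library's median 365 were higher and 364 lower. The median log2 fold change of all genes was 0.04 as deposited, 0.23 after rescaling, −0.11 after centring and −0.07 after quantile normalization, and fold changes are to be read relative to these shifts. Without both replicates 2 there were 386 higher genes (2.64%) and 443 lower (3.03%), among them 233 and 191 of those called with 6 libraries. Leaving out a single library moved the counts further. Without VD replicate 2, 3 genes passed the adjusted test, all lower in INS + VD (Igh-6, AABR07060872.1 and Scgn, limma adjusted p = 0.00242, 0.00422 and 0.0472), and 699 genes were lower at the unadjusted p. Without VD replicate 3 there were 1285 higher and 410 lower genes, without INS + VD replicate 1 there were 236 and 137, and without INS + VD replicate 3 there were 178 and 76. Groups did not overlap for 1108 genes with higher values in INS + VD (7.58%) and 1132 with lower (7.75%), and 7722 genes (52.8%) had a log2 fold change above 0.

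VD replicate 1 weighed on these counts. It had the lowest of the 6 values in 329 of the 432 higher genes and was at 0 in 99 of them, and it had the highest value in 178 of the 267 lower genes. To set aside differences that rest on a single library, the fit was repeated without each of the 6 libraries in turn. In all 7 fits 97 genes stayed higher (0.664% of those tested) and 52 stayed lower (0.356%). Of these, 84 and 49 were also called without both replicates 2, and all 149 had the same sign there. VD replicate 1 still had the lowest value in 72 of the 97 and was at 0 in 28 of them. The CK mean lay above the VD mean in 96 of the 97 higher genes and below it in 52 of the 52 lower genes, and without CK replicate 3, left out after its cerebellum markers were seen, in 95 and 52. CK was not used to choose these genes, but the VD libraries enter both differences, so these counts are not independent of the choice.

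**Figure D2:**
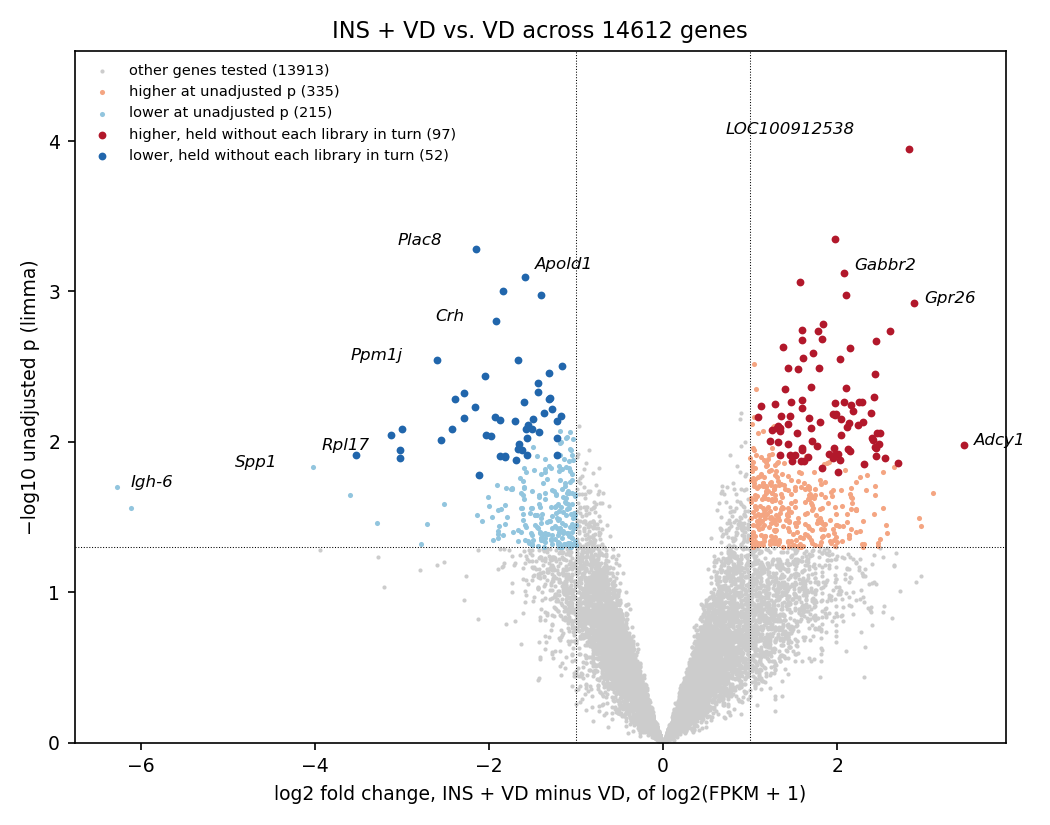
Unadjusted p (as −log10, y axis) against the log2 fold change of INS + VD over VD (x axis) for the 14612 genes tested with limma. Dotted lines mark a p of 0.05 and a log2 fold change of 1 in each direction. Dark points are the 97 higher and 52 lower genes that also passed in each fit without 1 library. Igh-6 and Spp1, with some of the largest differences, are not among them.

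The smallest p among the higher genes belonged to LOC100912538, annotated as a centrin-3-like gene. Centrins are calcium-binding proteins of the centrosome. It was at 16.5, 20.3 and 15.1 FPKM in INS + VD libraries, against 2.23, 0.769 and 2.0 FPKM in VD libraries, a log2 fold change of 2.82 (SE 0.37). The CK libraries had 1.11, 13.4 and 0.933 FPKM, so the INS + VD libraries lay above all 6 others. As a gene with a near-identical relative its FPKM could have been split between copies, and its level is uncertain.

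Six3 encodes a homeobox transcription factor of forebrain development that also marks striatal neurons. It was at 1.81, 2.73 and 4.69 FPKM in INS + VD libraries and listed at 0 in all 3 VD libraries. CK libraries had 1.03, 0 and 0 FPKM. No fold change is given against a group listed at 0.

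Gabbr2 encodes the subunit of the GABA-B receptor that couples it to G proteins and had the next smallest p after Six3 among the higher genes. It was at 86.5, 50.4 and 105 FPKM in INS + VD libraries, against 17.5, 21.7 and 14.1 FPKM in VD libraries. The means were 80.6 ± 27.7 FPKM in INS + VD and 17.8 ± 3.84 FPKM in VD (SD, n = 3 each). The log2 fold change was 2.08 (SE 0.37), with 1.86 to 2.38 without each library in turn and 2.53 without both replicates 2. The lowest INS + VD value was above the highest VD value, and the CK libraries (103, 94.0 and 62.5 FPKM) lay with INS + VD.

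In the other direction the smallest p belonged to Plac8, an interferon-induced gene of immune cells. It was at 1.02, 2.31 and 0.929 FPKM in INS + VD libraries, against 7.75, 11 and 9.70 FPKM in VD libraries. The log2 fold change was −2.15 (SE 0.36) and −2.29 without both replicates 2. CK libraries had 0.531, 1.25 and 0.320 FPKM, near the INS + VD values.

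Apold1, an immediate early gene of endothelial cells, had closely spaced values within each group. It was at 7.0, 8.20 and 7.56 FPKM in INS + VD libraries, against 25.0, 26.5 and 23.0 FPKM in VD libraries. The means were 7.59 ± 0.602 FPKM in INS + VD and 24.8 ± 1.71 FPKM in VD (SD, n = 3 each). The log2 fold change was −1.59 (SE 0.29), with −1.64 to −1.54 without each library in turn. The CK libraries had 19.6, 21.3 and 20.2 FPKM, so here INS + VD lay below both other groups.

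The promoters of Gabbr2, Plac8 and Apold1 are shown, out of the genes with the smallest p among those that stayed in all fits. That of Six3 met the same rule and is described below without its sequence. They are the RefSeq sequences of build GRCr8 from 250 bases before to 50 bases after the gene start, read 5′ to 3′ along the gene. The deposited table uses other coordinates, whose build the submission does not settle, and places Gabbr2 on chromosome 5 from 62276100 to 62621737, Plac8 on chromosome 14 from 10692764 to 10714524 and Apold1 on chromosome 4 from 168752133 to 168755023. Capitals mark the motifs searched on both strands, namely the cAMP response element TGACGTCA, the GC box GGGCGG, the CCAAT box CCAAT and the TATA box TATAAA. The Gabbr2 window lies at chr5:66083646-66083945 on the minus strand, that of Plac8 at chr14:9356700-9356999 on the plus strand and that of Apold1 at chr4:169552349-169552648 on the plus strand.
Gabbr2: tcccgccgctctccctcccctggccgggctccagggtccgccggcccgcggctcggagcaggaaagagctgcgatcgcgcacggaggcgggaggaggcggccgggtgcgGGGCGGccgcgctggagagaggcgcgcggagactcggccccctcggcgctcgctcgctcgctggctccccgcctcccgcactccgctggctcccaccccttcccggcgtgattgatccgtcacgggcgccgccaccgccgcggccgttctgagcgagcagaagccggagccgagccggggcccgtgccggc
Plac8: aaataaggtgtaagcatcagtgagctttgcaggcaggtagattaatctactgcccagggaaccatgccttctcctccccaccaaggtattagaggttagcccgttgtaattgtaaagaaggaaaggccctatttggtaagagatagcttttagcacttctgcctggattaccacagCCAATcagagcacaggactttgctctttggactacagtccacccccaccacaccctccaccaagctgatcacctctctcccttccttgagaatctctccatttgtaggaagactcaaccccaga
Apold1: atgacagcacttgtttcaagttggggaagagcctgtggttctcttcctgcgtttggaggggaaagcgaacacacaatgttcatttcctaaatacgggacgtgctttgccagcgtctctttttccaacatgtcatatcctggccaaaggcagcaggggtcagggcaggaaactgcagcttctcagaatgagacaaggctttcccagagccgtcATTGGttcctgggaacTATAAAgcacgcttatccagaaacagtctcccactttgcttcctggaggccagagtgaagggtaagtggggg
The Gabbr2 window was 78.7% G and C and held 1 GC box. The windows of Plac8 and Apold1 were 48.3% and 51.0% G and C with 1 CCAAT box each, and that of Apold1 also held 1 TATA box. The window of Six3, a higher gene like Gabbr2, was 49.7% G and C with 0 GC boxes and 3 CCAAT boxes. It was read on the minus strand of GRCr8, whereas the deposited positions place Six3 on the plus strand. Whether this window belongs to the gene measured is thus uncertain. With the Six3 window counted, the windows did not divide by direction, and without it there is a single higher gene to compare. None held the full cAMP response element. Over the promoters of the 10433 tested genes found in the reference, 62.5% held a GC box, 37.2% a CCAAT box, 6.66% a TATA box and 3.07% a cAMP response element. Among the 61 and 27 promoters found for genes that stayed higher and lower in all fits, the shares were 63.9% and 51.9% for the GC box, 36.1% and 40.7% for the CCAAT box, 4.92% and 18.5% for the TATA box and 6.56% and 0% for the cAMP response element. These matches describe letters only.

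Receptors for inhibitory transmitters and peptides were among the 97 genes that stayed higher. Gpr26, an orphan receptor of the brain and a CA1 marker, was at 38.1, 13.8 and 38.5 FPKM in INS + VD libraries, against 1.29, 2.78 and 5.58 FPKM in VD libraries (log2 fold change 2.88, SE 0.56). Sstr2, a somatostatin receptor that lowers cAMP, was at 9.99, 6.62 and 15.4 FPKM in INS + VD libraries, against 2.26, 2.22 and 0.494 FPKM in VD libraries (log2 fold change 2.15, SE 0.47). Further somatostatin receptors were higher too. Sstr1 had a log2 fold change of 2.04 (SE 0.58), and Sstr4, named after its values were seen, had one of 1.95 (SE 0.59). For Gpr26, Sstr1, Sstr2 and Sstr4, CK replicate 3 was low (1.70, 0.345, 1.26 and 0.0314 FPKM) while CK replicates 1 and 2 lay within or above the INS + VD range.

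Of 18 GABA receptor genes tested, 5 were higher in INS + VD (27.8%, against 2.96% of all genes) and 0 lower, with a median log2 fold change of 1.26 against 0.04 over all genes. Gabrb1, a beta subunit of GABA-A receptors, was at 7.15, 10.1 and 18.6 FPKM in INS + VD libraries, against 3.36, 4.67 and 4.41 FPKM in VD libraries (log2 fold change 1.24, SE 0.42). Gabrg3, a gamma subunit, had a log2 fold change of 1.37 (SE 0.50), and VD replicate 1 was listed at 0. The groups did not overlap for either gene. The list median ran from 0.79, without VD replicate 1, to 1.51 over the fits without 1 library and was 1.22 without both replicates 2.

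Genes of transmitter release showed the same direction. Of 42 presynaptic genes 10 were higher and 0 lower (23.8% higher, against 2.96% of all genes), 39 had a log2 fold change above 0, and the median was 1.16 (0.86 to 1.38 without each library in turn, 1.37 without both replicates 2). Nptx1, a secreted pentraxin that clusters glutamate receptors, was at 147, 32.9 and 138 FPKM in INS + VD libraries, against 18.6, 18.4 and 21.7 FPKM in VD libraries (log2 fold change 2.11, SE 0.58). Pclo, the scaffold piccolo of the active zone, was at 10.4, 4.88 and 15.8 FPKM in INS + VD libraries, against 0.310, 1.38 and 4.30 FPKM in VD libraries (log2 fold change 2.03, SE 0.62). Rims1, which docks vesicles at calcium channels, had a log2 fold change of 2.65 (SE 0.83) but was no longer called in at least 1 fit without a library. In Nptx1, Pclo and Rims1, INS + VD replicate 2 was the lowest of its group.

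On the receiving side, 6 of 50 glutamate receptor and postsynaptic scaffold genes were higher and 0 lower (12% higher, against 2.96% of all genes), with a median of 0.59 (0.42 to 1.08 without each library in turn). Grin2a, the NMDA receptor subunit of mature synapses, was at 19.5, 5.44 and 15.1 FPKM in INS + VD libraries, against 0, 1.65 and 3.85 FPKM in VD libraries (log2 fold change 2.46, SE 0.69). Its groups did not overlap, and VD replicate 1 was at 0. Shank1, Shank2 and Shank3, the large scaffolds of excitatory synapses, had log2 fold changes of 1.98, 1.27 and 1.71, and none of them stayed higher in all fits. Of 62 potassium channel genes 8 were higher and 0 lower (12.9% higher, against 2.96%), with a median of 0.76. Kcnq3, a subunit of the M-current channel that limits repetitive firing, was at 18.6, 7.17 and 19.1 FPKM in INS + VD libraries, against 1.05, 5.63 and 3.49 FPKM in VD libraries (log2 fold change 1.91, SE 0.57). Each INS + VD library lay above each VD library.

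**Figure D3:**
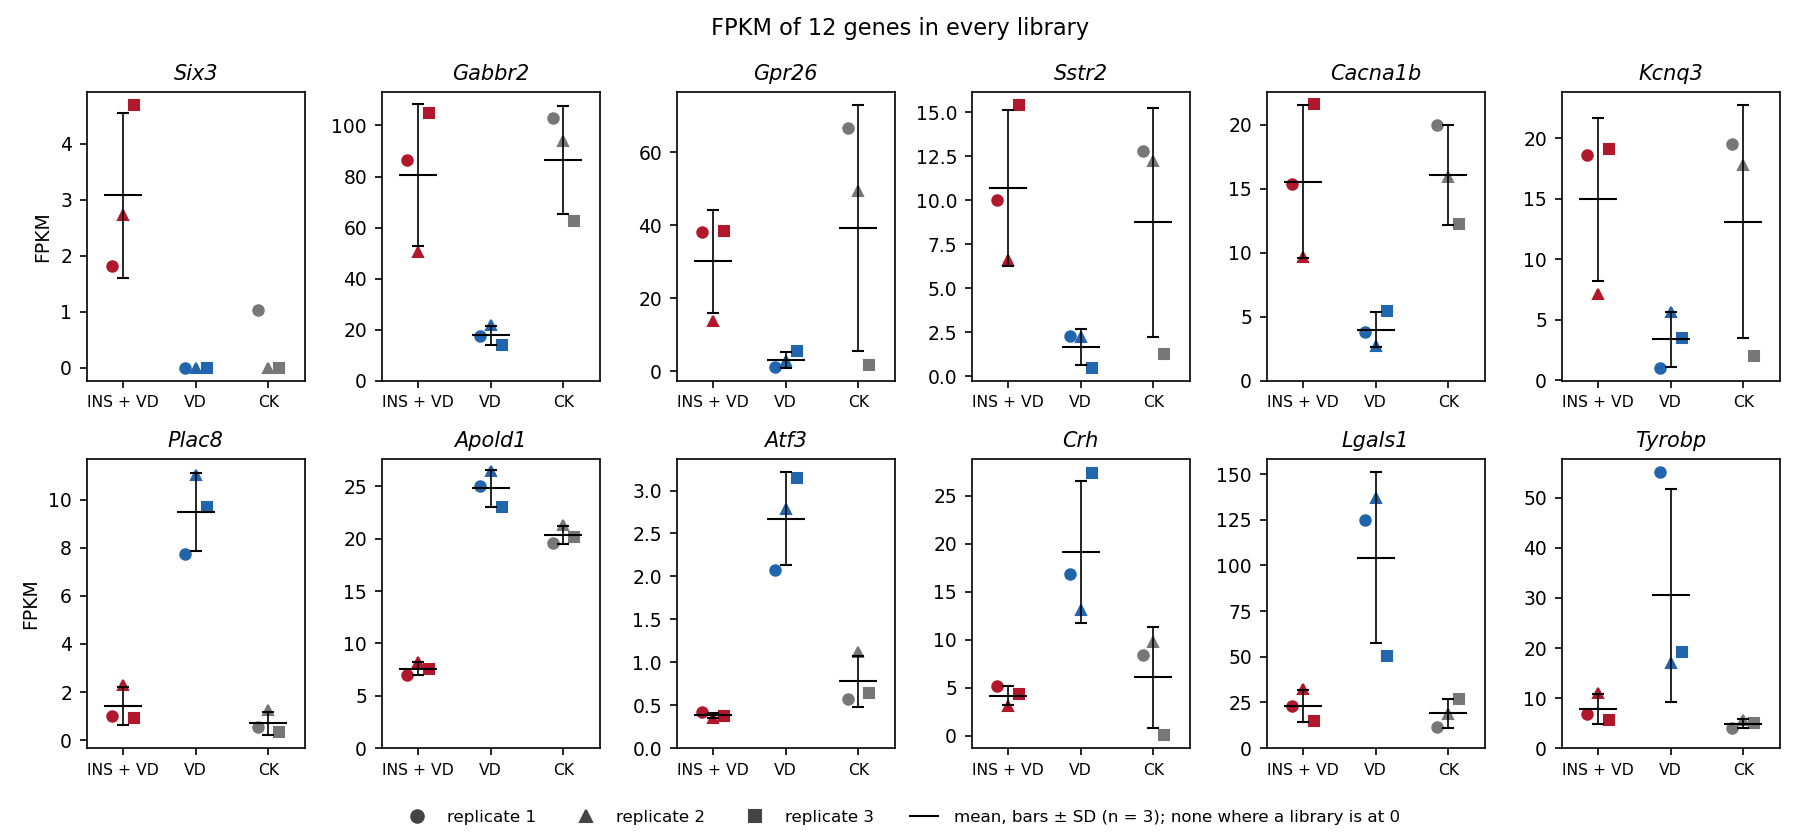
FPKM (linear y axes from 0) of 12 genes in the INS + VD, VD and CK libraries (x axis), with a symbol for each replicate number and the mean ± SD (n = 3) where no library of the group is at 0. The upper row holds genes whose INS + VD values all lay above the VD values, such as Gabbr2 (50.4 to 105, against 14.1 to 21.7 FPKM). The lower row holds genes whose INS + VD values all lay below, such as Apold1 (7.0 to 8.20, against 23.0 to 26.5 FPKM).

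Calcium and cAMP genes, the pathways in which the study placed many of its differences, held 12 and 15 higher genes. The lists follow that study, so their direction is not independent evidence. Of 60 calcium entry, extrusion and store genes 12 were higher and 0 lower (20% higher, against 2.96% of all genes), with a median of 0.94 (0.66 without VD replicate 1 to 1.19). Cacna1b, the pore of the N-type channel that triggers transmitter release, was at 15.4, 9.67 and 21.6 FPKM in INS + VD libraries, against 3.80, 2.70 and 5.46 FPKM in VD libraries (log2 fold change 1.70, SE 0.42). Trpc5, a receptor-operated cation channel, was at 4.6, 4.87 and 7.30 FPKM in INS + VD libraries, against 0, 1.54 and 2.38 FPKM in VD libraries (log2 fold change 1.66, SE 0.50). Cacna1b and Trpc5 stayed higher in all fits, and their groups did not overlap.

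Of 50 cAMP signaling genes 15 were higher and 0 lower (30.0%, against 2.96% of all genes), with a median of 0.96 that was 0.50 without VD replicate 1 and 1.21 without both replicates 2. Adcy1, the calcium-stimulated adenylate cyclase of hippocampal neurons, had the largest fold change of the genes that stayed higher. It was at 99.2, 15.2 and 59.5 FPKM in INS + VD libraries, against 0, 7.18 and 8.08 FPKM in VD libraries (log2 fold change 3.45, SE 1.01). CK libraries had 83.9, 103 and 292 FPKM, with the highest value in the library in which cerebellum markers summed highest. Its log2 fold change was 2.42 to 4.21 without each library in turn and 4.69 without both replicates 2, and VD replicate 1 is listed at 0. Htr1b and Htr4, serotonin receptors that lower and raise cAMP, had log2 fold changes of 2.49 and 1.31, and Drd1, the dopamine receptor that raises it, one of 2.40 (SE 0.68).

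Drd1 is also a marker of the striatum, another region of the forebrain. Of 23 striatum markers 7 were higher and 0 lower (30.4% higher, against 2.96% of all genes), with a median of 1.03 (0.78 to 1.36 without each library in turn). Summed over 24 markers, FPKM came to 607, 341 and 730 in INS + VD libraries, against 368, 298 and 390 in VD libraries and 636, 386 and 277 in CK libraries. Ppp1r1b, the dopamine-regulated phosphatase inhibitor DARPP-32, was at 139, 48.4 and 121 FPKM in INS + VD libraries, against 37.1, 28.6 and 20.9 FPKM in VD libraries (log2 fold change 1.70, SE 0.47). Whether the share of striatal tissue differed between libraries was not tested.

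Axon guidance, another theme of the study, had 9 of 69 genes higher and 1 lower (13% and 1.45%, against 2.96% and 1.83% of all genes), with a median of 0.54 that was 0.30 without VD replicate 1 and 0.86 without VD replicate 3. Unc5d, a netrin receptor, had the largest fold change of the list. It was at 5.66, 7.73 and 15.9 FPKM in INS + VD libraries, against 0, 1.35 and 1.56 FPKM in VD libraries (log2 fold change 2.45, SE 0.53). Unc5a, a related receptor, had a log2 fold change of 2.14 (SE 0.58), and Dcc, the attractive netrin receptor, one of 1.25 (SE 0.37). Plxna4, a semaphorin receptor, was at 7.77, 7.74 and 12.6 FPKM in INS + VD libraries, against 0, 2.16 and 2.72 FPKM in VD libraries (log2 fold change 2.16, SE 0.56). The lower gene was Cxcr4, a chemokine receptor, at 1.91, 1.66 and 0.779 FPKM in INS + VD libraries, against 5.46, 3.22 and 13.1 FPKM in VD libraries (log2 fold change −1.60, SE 0.50).

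Adgrl2, Slc2a13, Tnr and Wnt2 also stayed higher in all fits. Adgrl2, an adhesion receptor of the latrophilin family, was at 12.6, 10.4 and 15.8 FPKM in INS + VD libraries, against 2.91, 4.16 and 3.64 FPKM in VD libraries (log2 fold change 1.60, SE 0.33). Slc2a13, a proton-coupled myo-inositol transporter, was at 33.7, 22.4 and 37.0 FPKM in INS + VD libraries, against 5.04, 9.17 and 9.87 FPKM in VD libraries (log2 fold change 1.84, SE 0.38). Tnr, tenascin-R of the perineuronal matrix, was at 13.4, 11.7 and 18.1 FPKM in INS + VD libraries, against 0.294, 4.21 and 5.30 FPKM in VD libraries (log2 fold change 2.12, SE 0.63). In each of these genes every INS + VD library lay above every VD library, and the CK libraries of Tnr were at 18 to 18.4 FPKM. Tnr belongs to a list of 41 extracellular matrix and remodelling genes, of which 2 were higher and 4 lower (4.88% and 9.76%, against 2.96% and 1.83% of all genes), with a median of −0.06 (−0.21 without VD replicate 1, 0.14 without VD replicate 3). Wnt2, a secreted Wnt ligand, was at 8.37, 3.62 and 3.46 FPKM in INS + VD libraries, against 0.774, 0.125 and 0.216 FPKM in VD libraries (log2 fold change 2.10, SE 0.40), and CK replicate 3 was at 0.0882 FPKM, against 8.16 and 10.6 FPKM in CK replicates 1 and 2.

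Neuronal markers give the background for these synaptic groups. Of 26 pan-neuronal markers 1 was higher, Scn2a, an axonal sodium channel (log2 fold change 1.59, SE 0.47), and 0 were lower (3.85% higher, against 2.96% of all genes), while the median was 0.66. Fold changes were above 0 for 23 of the 26. Groups without overlap were higher for 5 and lower for 0, against 7.58% and 7.75% of all genes. Their median log2(FPKM + 1) was 7.21, 7.33 and 7.77 in INS + VD libraries, against 5.73, 6.25 and 7.08 in VD libraries, without overlap. Their summed FPKM was 6124, 6788 and 6874 in INS + VD libraries, against 7420, 6135 and 4926 in VD libraries, so the sums overlapped. The 31 excitatory neuron markers had 3 higher and 0 lower genes (9.68% higher) and a median of 0.90 that ran from 0.31 to 1.79 without each library in turn. The 27 GABAergic interneuron markers had 0 called genes and a median of −0.04 (0.15 after rescaling, −0.31 without INS + VD replicate 3 and 0.53 without VD replicate 3).

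Heat shock genes included 3 that stayed higher in all fits. Hsph1, the large Hsp110 chaperone, was at 143, 223 and 173 FPKM in INS + VD libraries, against 45.7, 79.5 and 95.5 FPKM in VD libraries (log2 fold change 1.32, SE 0.38). Hspa1b, an inducible Hsp70, was at 2.72, 18.3 and 7.72 FPKM in INS + VD libraries, against 1.28, 0.854 and 1.45 FPKM in VD libraries (log2 fold change 1.97, SE 0.59). CK libraries had 0.372 to 0.788 FPKM of Hspa1b, so it was highest in INS + VD. Hspa1b has a near-identical neighbour, Hspa1a, and reads may have been split between them. Without both replicates 2, Hsph1 and Hspa1b had log2 fold changes of 1.24 and 1.27 and were no longer called. Of all 29 heat shock genes 4 were higher and 0 lower (13.8% higher, against 2.96% of all genes), with a median of 0.20 that was 0.07 without INS + VD replicate 2 and 0.39 to 0.41 without VD replicate 2, INS + VD replicate 1 or INS + VD replicate 3.

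**Figure D4:**
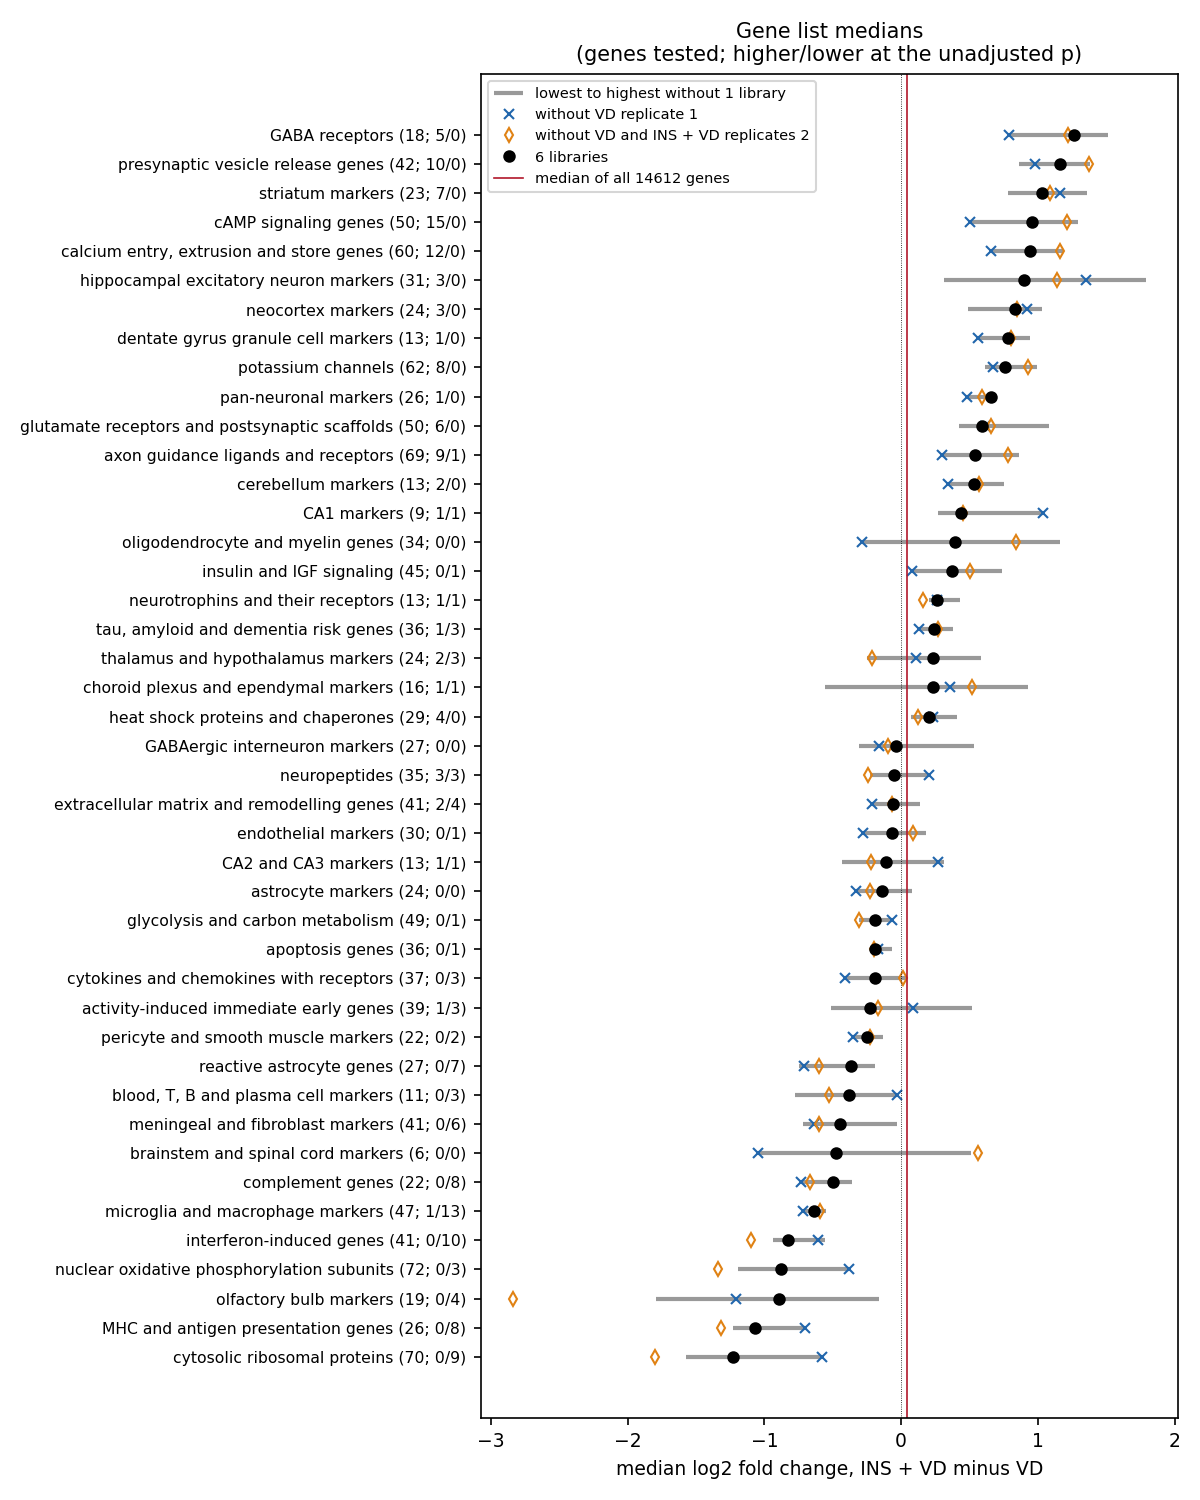
Median log2 fold change of INS + VD over VD (x axis) for 43 gene lists (rows, with the genes tested and the higher and lower genes at the unadjusted p in brackets). Black points use the 6 libraries, grey bars run over the fits without 1 library, crosses leave out VD replicate 1 and diamonds both replicates 2. The red line is the median of all genes (0.04). GABA receptors (1.26) and presynaptic genes (1.16) lie at the top and ribosomal proteins (−1.23) at the bottom, and for ribosomal proteins the value without VD replicate 1 was −0.58.

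Several immune and glial lists had a larger share of lower genes than the 1.83% of all genes. Of the 52 genes that stayed lower in all fits, 18 were in any list. Of 37 cytokine, chemokine and receptor genes 3 were lower and 0 higher (8.11% lower), and 16 had a log2 fold change above 0. Their median was −0.19, with −0.41 without VD replicate 1 and 0.04 without VD replicate 3, and 0 of them stayed lower in all fits. Of 41 interferon-induced genes 10 were lower and 0 higher (24.4%, against 1.83% of all genes), 37 had a log2 fold change below 0, and the median was −0.83 (−0.94 to −0.56 without each library in turn, −1.10 without both replicates 2). Besides Plac8, Mx1 and Usp18 stayed lower in all fits. Mx1, an antiviral GTPase, was at 1.15, 1.01 and 0.205 FPKM in INS + VD libraries, against 3.52, 3.15 and 2.87 FPKM in VD libraries (log2 fold change −1.27, SE 0.33). Usp18, which removes the ubiquitin-like ISG15 from proteins, was at 1.52, 2.19 and 0.519 FPKM in INS + VD libraries, against 7.5, 3.60 and 6.85 FPKM in VD libraries (log2 fold change −1.55, SE 0.42). Both genes were low in absolute level, and the log2(FPKM + 1) scale understates their fold changes.

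Antigen presentation and complement genes lay in the same direction. Of 26 MHC and antigen presentation genes 8 were lower and 0 higher (30.8% lower, against 1.83% of all genes), with a median of −1.07 (−0.70 without VD replicate 1 to −1.23 without VD replicate 2). Psmb8, the immunoproteasome subunit, was at 1.51, 1.0 and 0.302 FPKM in INS + VD libraries, against 9.40, 2.99 and 4.39 FPKM in VD libraries (log2 fold change −1.70, SE 0.46). Psmb8 is also in the list of reactive astrocyte genes below. RT1-A1, a class I gene with many near-identical relatives and so an uncertain level, had a log2 fold change of −1.64. Of 22 complement genes 8 were lower and 0 higher (36.4% lower, against 1.83%), with a median of −0.50. C1qa, C1qb and C1qc, the chains of the initiator C1q, had log2 fold changes of −1.21, −1.23 and −1.10. C1qa was at 31.0, 55.6 and 28.8 FPKM in INS + VD libraries, against 133, 55.0 and 88.8 FPKM in VD libraries, so INS + VD replicate 2 overlapped with VD replicate 2, and no complement gene stayed lower in all fits.

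Microglial markers had a median below 0. Of 47 tested 13 were lower and 1 higher (27.7% lower, against 1.83% of all genes), 23 had lower groups without overlap (7.75% of all genes), and the median was −0.64 (−0.72 to −0.55 without each library in turn). Tyrobp, the adaptor of microglial receptors such as Trem2, was at 6.79, 11.1 and 5.55 FPKM in INS + VD libraries, against 55.1, 17.1 and 19.3 FPKM in VD libraries (log2 fold change −1.69, SE 0.52). Cyba, a subunit of the microglial NADPH oxidase, was at 8.71, 12.7 and 7.02 FPKM in INS + VD libraries, against 58.8, 18.5 and 25.8 FPKM in VD libraries (log2 fold change −1.62, SE 0.48). Cd33, a sialic acid receptor linked to Alzheimer risk in humans, had 3.41, 2.23 and 1.77 FPKM in INS + VD libraries, against 10.5, 8.02 and 6.60 FPKM in VD libraries (log2 fold change −1.44, SE 0.36). Casp4, an inflammatory caspase, had a log2 fold change of −1.66 (SE 0.38). Summed over 52 microglial markers, FPKM came to 2196, 2908 and 2141 in INS + VD libraries, against 8764, 3087 and 4360 in VD libraries and 1359 to 2076 in CK libraries. Meningeal and fibroblast markers, summed over 44 genes, were also at 1300, 964 and 1032 FPKM in INS + VD, against 6549, 1973 and 3588 FPKM in VD, and the part of meninges in the microglial values was not tested.

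Astrocyte genes divided by list. The 24 general astrocyte markers had 0 called genes and a median of −0.14 that was 0.10 after rescaling, 0.08 without VD replicate 2 and −0.33 without VD replicate 1. Of 27 reactive astrocyte genes 7 were lower and 0 higher (25.9% lower, against 1.83% of all genes), with a median of −0.37 (−0.75 to −0.19 without each library in turn). Timp1, an inhibitor of matrix proteases, was at 3.12, 3.99 and 4.07 FPKM in INS + VD libraries, against 24.8, 7.39 and 11.2 FPKM in VD libraries (log2 fold change −1.56, SE 0.47). Gfap, the astrocyte filament whose protein the study stained, was at 222, 218 and 201 FPKM in INS + VD libraries, against 338, 440 and 304 FPKM in VD libraries and 90.2, 119 and 162 FPKM in CK libraries. The log2 fold change of Gfap was −0.74 (SE 0.31), under the fold change minimum, and its groups did not overlap. Its unadjusted p was just inside the threshold and passed out of it when a library was left out.

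Lgals1 and Anxa2, a secreted galectin and a membrane-binding annexin found in reactive glia, vessels and meninges, stayed lower in all fits. Lgals1 was at 23.1, 32.2 and 14.7 FPKM in INS + VD libraries, against 125, 137 and 50.5 FPKM in VD libraries (log2 fold change −2.05, SE 0.49). Anxa2 was at 12.7, 10.8 and 12.3 FPKM in INS + VD libraries, against 42.1, 41.3 and 22.6 FPKM in VD libraries (log2 fold change −1.44, SE 0.35). For Anxa2 the CK libraries lay lower still, at 6.62 to 8.27 FPKM.

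Among stress-related regulators, Atf3 and Crh were lower. Atf3, a stress-induced transcription factor, was at 0.416, 0.357 and 0.371 FPKM in INS + VD libraries, against 2.08, 2.79 and 3.15 FPKM in VD libraries (log2 fold change −1.40, SE 0.27). Crh, the corticotropin-releasing peptide made by hippocampal interneurons as well as by the hypothalamus, was at 5.11, 3.06 and 4.32 FPKM in INS + VD libraries, against 16.8, 13.1 and 27.4 FPKM in VD libraries (log2 fold change −1.92, SE 0.39). Every INS + VD library was below every VD library for both. The wider immediate early list did not share a direction. Of its 39 genes 1 was higher and 3 lower (2.56% and 7.69%, against 2.96% and 1.83% of all genes), and the median was −0.23, but 0.52 at the highest without 1 library. The higher gene was Bdnf, the activity-dependent neurotrophin, at 6.43, 4.56 and 7.35 FPKM in INS + VD libraries, against 4.36, 1.42 and 2.14 FPKM in VD libraries (log2 fold change 1.03, SE 0.41).

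Of 45 insulin and IGF signaling genes 0 were higher and 1 lower (0% and 2.22%), shares near those of all genes (2.96% and 1.83%), with a median of 0.37 that was 0.08 without VD replicate 1 and 0.74 without VD replicate 3. Insr was at 6.36, 5.56 and 8.80 FPKM in INS + VD libraries, against 0.963, 4.71 and 8.40 FPKM in VD libraries (log2 fold change 0.72, SE 0.59). Igf1r, the related IGF receptor, was at 4.81, 3.28 and 5.59 FPKM in INS + VD libraries, against 0.929, 2.69 and 4.14 FPKM in VD libraries (log2 fold change 0.72, SE 0.45). For both receptors VD replicate 1 was the lowest library and the groups overlapped. Irs1 had a log2 fold change of 0.57 (SE 0.55), but −0.04 without VD replicate 1, where it is listed at 0, and Irs2 one of 0.91 (SE 0.47). Gsk3b had a log2 fold change of 1.44 (SE 0.66), just outside the unadjusted threshold, and one of 0.65 without VD replicate 1. The lower gene was Igfbp2, a secreted IGF-binding protein that is also a meningeal marker, at 125, 54.7 and 40.0 FPKM in INS + VD libraries, against 340, 114 and 203 FPKM in VD libraries (log2 fold change −1.60, SE 0.56). Besides Igfbp2 none of these genes passed the unadjusted threshold, which does not show that they were alike in both groups.

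Mapt encodes tau, and App the precursor of the amyloid beta peptide. The study stained tau, phosphorylated tau and that peptide. It reported significantly less staining of tau and phosphorylated tau in INS + VD than in VD, and no significant difference for the peptide. The values here are of RNA, an unlike measure. Mapt was at 68.4, 64.7 and 77.8 FPKM in INS + VD libraries, against 39.6, 41.9 and 49.1 FPKM in VD libraries, and CK libraries had 65.9 to 74.0 FPKM. Its log2 fold change was 0.68 (SE 0.28), from 0.61 to 0.77 without each library in turn, and its groups did not overlap. This difference was under the fold change minimum. Its unadjusted limma p was 0.0425 with 6 libraries and up to 0.145 when 1 library was left out. The median of the pan-neuronal markers was 0.66, near the value of Mapt. Mapt RNA was thus higher in INS + VD by a small margin, whereas the study reported less tau staining there. That staining was read in the CA1 region, a part of the hippocampus. App was at 570, 520 and 590 FPKM in INS + VD libraries, against 213, 448 and 333 FPKM in VD libraries (log2 fold change 0.82, SE 0.38). Of 36 apoptosis genes 0 were higher and 1 lower, the death receptor gene Tnfrsf1a (log2 fold change −1.02, SE 0.35), with a median of −0.19 that was −0.07 when VD replicate 3 and −0.11 when INS + VD replicate 1 was left out. The share of lower apoptosis genes (2.78%) was near that of all genes (1.83%).

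Of the genes that the study measured by qRT-PCR, Adcy1, Trpc5, Cxcr4 and Shank3 are given above. Itpr1, the calcium release channel of internal stores, was at 65.3, 13.9 and 40.1 FPKM in INS + VD libraries, against 9.06, 4.96 and 14.8 FPKM in VD libraries (log2 fold change 1.81, SE 0.62). Atp2b3, a calcium pump of the plasma membrane, was at 28.5, 26.5 and 29.2 FPKM in INS + VD libraries, against 7.13, 14.7 and 12.6 FPKM in VD libraries (log2 fold change 1.27, SE 0.35). Itpr1 overlapped between groups in a single pair of libraries, while Atp2b3 did not overlap. Htr5a, a serotonin receptor, and Mpdz, a multi-PDZ scaffold, had log2 fold changes of 1.63 (SE 0.63) and 1.03 (SE 0.41). Tapbp, the tapasin chaperone of MHC class I, had one of −0.36 (SE 0.33) with overlapping groups. Frmd7, a FERM domain gene, did not pass the filter on low values. It was at 0.0396, 0 and 0.0390 FPKM in INS + VD libraries, against 6.71, 0.114 and 24.6 FPKM in VD libraries. The difference of Frmd7 thus rests on VD replicates 1 and 3, in which olfactory bulb markers summed highest (882 and 1551 FPKM). These markers came to 562 FPKM in INS + VD replicate 2 and 789 FPKM in CK replicate 3, where Frmd7 was listed at 0. The part of olfactory bulb tissue in its values was not tested.

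Genes of translation and respiration had medians well below 0. All 70 cytosolic ribosomal protein genes had a log2 fold change below 0, 43 had lower groups without overlap (7.75% of all genes did), 9 were called lower and 0 higher (12.9% lower, against 1.83% of all genes), and the median was −1.23. Without VD replicate 1 the median was −0.58, and without both replicates 2 it was −1.80. Rpl32 was at 136, 225 and 122 FPKM in INS + VD libraries, against 945, 305 and 248 FPKM in VD libraries (log2 fold change −1.41, SE 0.57). Of 72 nuclear genes of oxidative phosphorylation 3 were lower and 0 higher (4.17% lower), with a median of −0.88 that was −0.38 without VD replicate 1. Ndufb2, a complex I subunit, was at 37.9, 79.1 and 40.5 FPKM in INS + VD libraries, against 559, 119 and 97.1 FPKM in VD libraries (log2 fold change −1.89, SE 0.69). In both lists VD replicate 1 was the highest library for the genes named.

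These genes are short, and fold changes between INS + VD and VD were ordered by gene length. Gene span is the distance from start to end in the deposited table, introns included. Over quintiles of the tested genes from the shortest to the longest, the median log2 fold change was −0.21, −0.17, −0.02, 0.16 and 0.42. The shortest quintile (up to 4995 bp) held 58 higher and 129 lower genes, and the longest (from 64832 bp) 202 higher and 14 lower. Genes called higher had a median span of 54706 bp and genes called lower one of 5614 bp, against 19652 bp over all tested genes. For those that stayed in all fits the medians were 41278 and 4749 bp. The gradient was flatter without VD replicate 1, from −0.13 to 0.13. Within libraries, the median log2(FPKM + 1) of the longest quintile minus that of the shortest was 0.52, 0.39 and 0.65 in INS + VD libraries, against −1.04, 0.11 and 0.30 in VD libraries and 0.53, 0.53 and 0.46 in CK libraries. All 3 VD libraries were thus below all 6 others in this respect. The synaptic and channel lists above have long genes (median spans of 124922 bp for GABA receptors, 127598 bp for calcium genes and 60784 bp for presynaptic genes), and the ribosomal, oxidative phosphorylation and MHC lists short genes (2621, 6726 and 6634 bp). The part of gene span in these list medians was not tested.

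**Figure D5:**
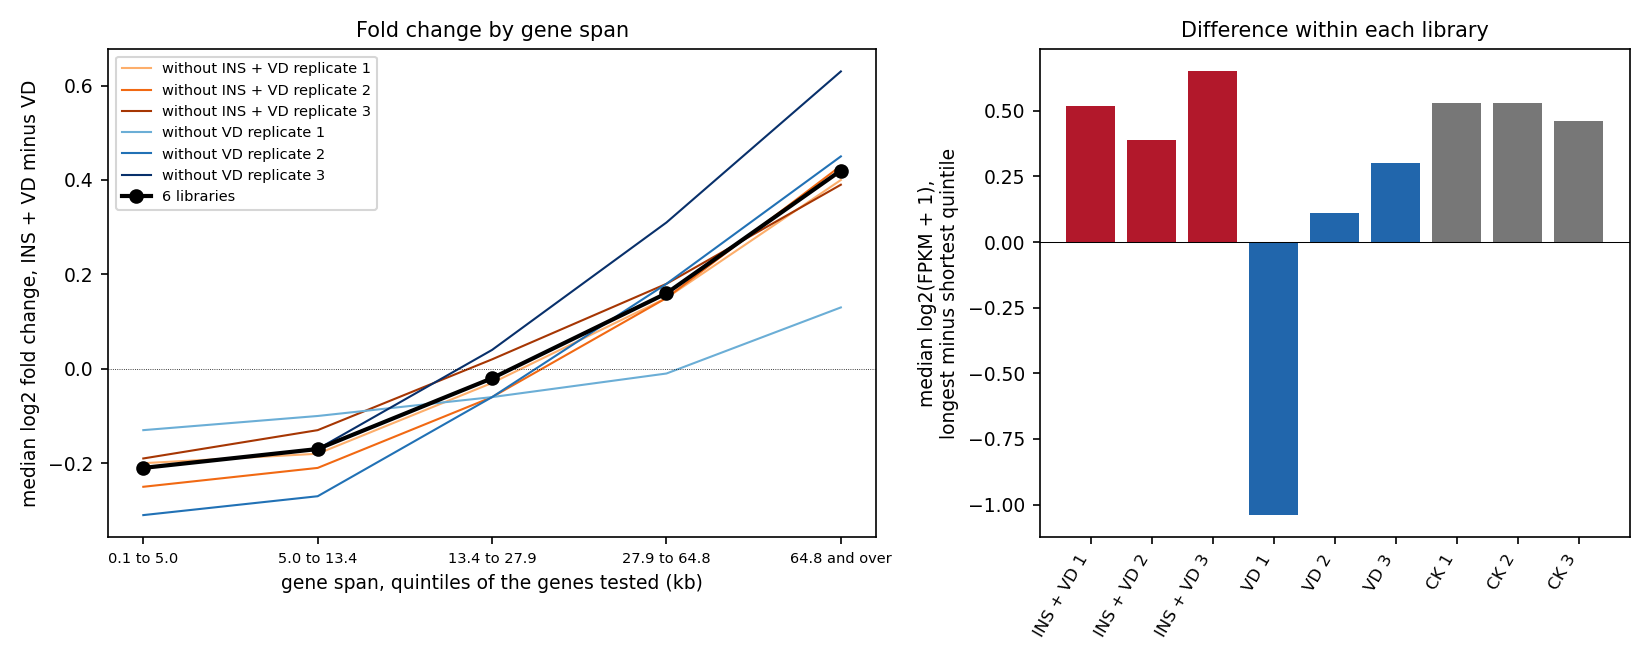
Left, median log2 fold change of INS + VD over VD (y axis) in quintiles of the tested genes by gene span in kb (x axis), with 6 libraries (black) and without each library in turn (coloured lines). It runs from −0.21 in the shortest quintile to 0.42 in the longest, and to 0.13 without VD replicate 1. Right, median log2(FPKM + 1) of the longest quintile minus that of the shortest in each library (bars from 0), which was lowest in VD replicate 1 (−1.04).

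Several of the largest fold changes in the lower direction belonged to genes that were high in VD replicates 1 and 3. Igh-6, an immunoglobulin heavy chain gene of B and plasma cells, was at 0.173, 0 and 0 FPKM in INS + VD libraries, against 502, 0.661 and 639 FPKM in VD libraries. Jchain, which joins secreted antibodies, was at 0.721, 2.05 and 3.19 FPKM in INS + VD libraries, against 62.4, 2.99 and 152 FPKM in VD libraries. Trh, a hypothalamic peptide that olfactory bulb neurons also make, was at 0.870, 4.44 and 1.22 FPKM in INS + VD libraries, against 48.1, 5.08 and 48.5 FPKM in VD libraries. In all of these genes VD replicates 1 and 3 were high and VD replicate 2 was near the INS + VD values, although Trh stayed lower in all fits. Spp1, osteopontin, was at 1.37, 64.1 and 1.38 FPKM in INS + VD libraries, against 64.9, 121 and 192 FPKM in VD libraries (log2 fold change −4.02, SE 1.26), and was thus high in all 3 VD libraries and in INS + VD replicate 2. Ptgds, the prostaglandin D synthase of meninges and oligodendrocytes, was at 875, 620 and 730 FPKM in INS + VD libraries, against 5850, 1547 and 2713 FPKM in VD libraries (log2 fold change −1.98, SE 0.56). The sum of myelin genes overlapped between the groups. Summed over 34 oligodendrocyte and myelin genes, FPKM came to 9602, 11242 and 2200 in INS + VD libraries, against 2121, 19576 and 3076 in VD libraries, and 0 of these genes were called. Groups did not overlap for 3 of the 34, all with higher values in INS + VD (Cspg4, Gpr17 and Lims2), a share near the 7.58% of all genes.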

How the data were processed

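Hippocampal RNA of INS + VD, VD and CK rats was measured by RNA-seq, 3 libraries per group. The authors aligned reads with HISAT2 and deposited 1 table of FPKM per gene and library (21138 genes, no counts). The labels name a SMARTER kit and the study's methods oligo(dT) selection, and the submitters' processing notes name the mouse builds GRCm38 and mm10 although the gene identifiers are of rat, so positions are given as deposited and the rat build is not settled. Values contain no total read number, so the depth is known only relative to another library, from the FPKM of a single fragment in low genes.

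Groups came from the labels. Genes that reached 0.5 FPKM in 3 or more of the 6 libraries were tested with limma 3.58.1 (R 4.3.3, empirical Bayes with trend, two-sided) on log2(FPKM + 1), with Benjamini-Hochberg adjustment over the 14612 genes. This scale understates the fold change of low genes. The thresholds were an adjusted p of 0.05 and a log2 fold change of 1 in either direction, as in the study's methods, and a second count used the unadjusted p. The fit was tested on simulated data. Of 1514 gene names in 43 lists 1450 were in the table and 1300 were tested. Named were up to 10 genes per direction with the largest fold changes without overlap between groups, up to 10 with the smallest p among those that passed without each library in turn, both with a mean of at least 1 FPKM, up to 4 of each list with the smallest p, and genes the study named. Some genes that meet this rule are not reported here. Slc17a7, Ttr and Sstr4 were named after their values were seen. The lists and members were chosen with earlier results of these data known. Some genes are in more than 1 list, so the lists are not independent of each other. Alternatives varied the pseudocount, filter, scaling, model and libraries. Promoters are RefSeq sequences of GRCr8. Figures were drawn with Python 3.11.15 and matplotlib 3.10.9.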

Additional observations from a re-analysis of the deposited data

Results flagged for a closer look

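Some genes that did not pass the filter on low values had at least 20 FPKM in 1 of the 6 libraries while all CK libraries were below 0.5 FPKM. They are given as values, and none was tested.

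Genes high in VD replicate 3 were Ms4a15 (57.3 FPKM, and 38.1 in VD replicate 1), Frmd7 (24.6 FPKM, and 6.71 in VD replicate 1), Tbx21, a T-box factor also used by olfactory bulb projection neurons (22.2 FPKM, and 8.87 in VD replicate 1), RGD1565617 (21.6 FPKM), AABR07065776.3 (53.3 FPKM), AABR07061134.1 (43.7 FPKM), AABR07065837.1 (32.0 FPKM) and AABR07061052.1 (25.7 FPKM). None of these 8 genes exceeded 0.2 FPKM in an INS + VD library. Summed olfactory bulb markers were highest in the same library, at 1551 FPKM, and their part in these values was not tested.

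In VD replicate 1, Romo1, a small mitochondrial membrane protein, was at 144 FPKM, against 0 and 0.239 FPKM in VD replicates 2 and 3. S100a5, a calcium-binding protein of olfactory neurons, was at 24.8 FPKM there and AABR07051689.1 at 25.6 FPKM. Hoxb2 and Hoxb5, homeobox genes of hindbrain and spinal cord, reached 25.2 and 24.0 FPKM in VD replicate 2, while the other 8 libraries were listed at 0. In INS + VD replicate 2, Chrna6, a nicotinic receptor subunit of midbrain dopamine neurons, was at 20.3 FPKM and AABR07017693.2 at 25.9 FPKM, while the other INS + VD libraries had at most 0.0985 FPKM of either.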

How the results depend on the processing

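No gene passed the adjusted test under any alternative with all 6 libraries. Leaving out 1 library gave 0 to 3 genes, and leaving out both replicates 2, an alternative chosen after seeing the data, gave 2. At the unadjusted p, counts without 1 library ran from 178 to 1285 higher and from 76 to 699 lower. Rescaling to an equal sum gave 656 higher and 134 lower genes, and leaving out both replicates 2 gave 443 lower. Genes that stayed in every fit numbered 97 higher and 52 lower, but 64 higher with a pseudocount of 0.1 (59 shared) and 25 lower after rescaling (all 25 shared). At the unadjusted p and any fold change, 932 genes became 287 to 1949 without 1 library, 1401 with array weights and 1398 with all 9 libraries in the fit. Other counts of higher and lower genes stayed within 1.5 times, apart from those of the replicate block. The causes were not tested, although a fit without a library also has fewer samples.

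With the replicate number as a replicate block 799 genes were higher and 359 lower, and 0 passed the adjusted test. Deviations of same-numbered libraries correlated at 0.0399, 0.387 and 0.346, and those of libraries with unlike numbers at −0.367 to 0.0699. The highest of the latter was that of INS + VD replicate 1 with VD replicate 3. The labels give no pairing beyond the number, and whether same-numbered libraries shared a batch was not tested.

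Of 77 genes given with a fold change, 1 took the other sign under any alternative, Irs1, which ran from −0.04 (without VD replicate 1) to 1.04 over the fits without 1 library. Of the 43 list medians 13 took the other sign under some alternative, 7 of them after rescaling. Without counts, precision at low FPKM is unknown.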

Other observations

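Peptides of the hypothalamus did not share a direction. Of 24 thalamus and hypothalamus markers 2 were higher and 3 lower (8.33% and 12.5%, against 2.96% and 1.83% of all genes), with Hcrt and Oxt among the higher and Crh and Trh among the lower. Hcrt, the orexin precursor, was at 2.27, 0.783 and 2.03 FPKM in INS + VD libraries and listed at 0 in all 3 VD libraries, and CK libraries had at most 0.0996 FPKM. Oxt, the oxytocin precursor, was at 1.84, 6.55 and 1.49 FPKM in INS + VD libraries, against 0, 0.827 and 0 FPKM in VD libraries (log2 fold change 1.62, SE 0.50). Nmb, neuromedin B, a peptide also of olfactory bulb neurons, was at 0.688, 0.498 and 0.398 FPKM in INS + VD libraries, against 31.2, 1.47 and 22.6 FPKM in VD libraries (log2 fold change −3.02, SE 0.92). Of all 35 neuropeptide genes 3 were higher and 3 lower (8.57% each), with a median of −0.05 that was 0.13 after rescaling, 0.20 without VD replicate 1 and −0.23 without VD replicate 3 or INS + VD replicate 2. Nkx2-1, a transcription factor of the hypothalamus and ventral forebrain, did not pass the filter and was at 0.402, 7.66 and 0.964 FPKM in INS + VD libraries and listed at 0 in all 3 VD libraries. Summed over 31 thalamus and hypothalamus markers, FPKM came to 106, 542 and 124 in INS + VD libraries, against 419, 177 and 445 in VD libraries.

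Of 30 endothelial markers 0 were higher and 1 lower, Apold1 (3.33% lower, against 1.83% of all genes), and the median was −0.07 (0.16 after rescaling, −0.28 without VD replicate 1 and 0.18 without VD replicate 2). Of 22 pericyte and smooth muscle markers 0 were higher and 2 lower, Vtn and Tpm2 (9.09% lower), 17 had a log2 fold change below 0, and the median was −0.25 (−0.36 to −0.13 without each library in turn). Vtn, vitronectin, which pericytes express, was at 15.2, 19.0 and 14.4 FPKM in INS + VD libraries, against 58.5, 28.3 and 48.8 FPKM in VD libraries (log2 fold change −1.37, SE 0.36). It stayed lower without each library in turn, and CK libraries had 13 to 16.2 FPKM. Cntf, a neurotrophic factor of astrocytes, was at 4.37, 9.59 and 2.23 FPKM in INS + VD libraries, against 10.2, 13.7 and 13.7 FPKM in VD libraries (log2 fold change −1.24, SE 0.48), and of the 13 neurotrophins and receptors Bdnf was higher and Cntf lower (7.69% each, against 2.96% and 1.83% of all genes).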
